A study of Homo sapiens with 6 samples.

Results

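Acetylated NEIL1 (AcNEIL1) peaks were examined at 51 autosomal genes of synapses and neurotransmission, out of 18973 autosomal protein-coding genes of the RefSeq annotation of GRCh38.p14. The 51 genes were listed by symbol for their function, with earlier results of these data known. Any excess of the 51 over all genes may therefore follow from the choice of genes. They were 5 of GABA signalling, 13 of glutamate signalling and 7 of monoamine and acetylcholine signalling. The rest were 13 of vesicle release, 8 of synaptic scaffolds and adhesion, and 5 other neuronal genes. The series held 6 libraries from exponentially growing HCT116 cells, a human colorectal carcinoma line: 3 ChIP-seq libraries made with a custom rabbit antibody to AcNEIL1, and 3 libraries of input chromatin. NEIL1 starts base excision repair by cutting damaged, oxidised bases out of DNA. The authors called peaks in each ChIP library against the input of the same number, and these 3 lists are the data used here. No genotype, drug or time course was compared, so all results are values of 1 untreated cell line beside all other genes, and no test between conditions was possible. Separate cultures are not stated for the replicates, whose spread may therefore be technical only. No RNA was measured in these libraries, so whether HCT116 cells express any of the 51 genes was not analysed here.

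A synapse passes a signal by releasing transmitter from vesicles onto receptors of the next cell. Vesicular transporters load glutamate, GABA or other transmitters, the SNARE proteins with synaptotagmins and complexins fuse the vesicle with the membrane, and scaffold and adhesion proteins hold receptors opposite the release site. Glutamate is the main excitatory and GABA the main inhibitory transmitter of the brain, and most of the genes below are known for their use in neurons rather than in colon epithelium.

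Each gene was extended by 5 kb on either side. The gene ends were the windows within 1 kb of either end of the gene, the body was the rest of the gene, and the flanks were the rest of the extension. A gene was said to have a peak where a peak overlapped it by at least 1 bp, and peaks per kb count peak summits per kb of the extended gene. The fold of a peak is the authors' own enrichment over the local background, and a gene takes, in each replicate, the fold of its strongest peak.

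Of the 51 genes, 37 had an entry in a RefSeq promoter table (GRCh38.p14) that gives strand and the 300 bases from 250 before to 50 after the start. A peak lay over this window in all 3 replicates at 3 of the 37 (8.11%), against 1.76% of 15101 genes: SNCG, SLC32A1 and GRIK5. The 250 bases upstream of their starts are shown first, followed by those of SLC17A6 and GAD2, which had no peak in any replicate. SNCG (γ-synuclein, a vesicle-associated protein) is at chr10:86955509-86955758, plus strand. SLC32A1 (the vesicular GABA transporter) is at chr20:38724236-38724485, plus strand. GRIK5 (a kainate-type glutamate receptor subunit) is at chr19:42070207-42070456, minus strand, in a region of overlapping peaks that also reached ZNF574. SLC17A6 (a vesicular glutamate transporter) is at chr11:22338131-22338380, plus strand, and GAD2 (a GABA-synthesising enzyme) at chr10:26216122-26216371, plus strand. Each sequence runs 5′ to 3′ on the gene's strand, and capitals mark GGGCGG or its reverse complement CCGCCC, the GC box bound by Sp family factors.
SNCG: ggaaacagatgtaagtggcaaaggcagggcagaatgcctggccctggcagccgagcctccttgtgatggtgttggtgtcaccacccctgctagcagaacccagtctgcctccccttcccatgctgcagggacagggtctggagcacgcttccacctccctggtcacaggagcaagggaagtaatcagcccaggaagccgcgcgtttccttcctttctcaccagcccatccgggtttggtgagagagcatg
SLC32A1: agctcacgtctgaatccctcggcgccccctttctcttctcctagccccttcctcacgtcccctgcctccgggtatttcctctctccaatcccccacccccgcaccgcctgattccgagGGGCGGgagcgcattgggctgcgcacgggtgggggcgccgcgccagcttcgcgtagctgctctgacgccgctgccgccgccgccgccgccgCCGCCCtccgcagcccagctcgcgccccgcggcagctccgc
GRIK5: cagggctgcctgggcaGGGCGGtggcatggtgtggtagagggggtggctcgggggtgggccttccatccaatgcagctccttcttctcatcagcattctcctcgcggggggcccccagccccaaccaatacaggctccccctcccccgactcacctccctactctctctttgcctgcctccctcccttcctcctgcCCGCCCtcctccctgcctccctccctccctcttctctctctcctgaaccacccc
SLC17A6: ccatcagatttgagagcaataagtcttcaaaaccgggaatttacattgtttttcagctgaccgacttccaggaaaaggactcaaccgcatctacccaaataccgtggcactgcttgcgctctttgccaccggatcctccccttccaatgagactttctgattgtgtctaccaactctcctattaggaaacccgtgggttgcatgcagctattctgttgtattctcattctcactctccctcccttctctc
GAD2: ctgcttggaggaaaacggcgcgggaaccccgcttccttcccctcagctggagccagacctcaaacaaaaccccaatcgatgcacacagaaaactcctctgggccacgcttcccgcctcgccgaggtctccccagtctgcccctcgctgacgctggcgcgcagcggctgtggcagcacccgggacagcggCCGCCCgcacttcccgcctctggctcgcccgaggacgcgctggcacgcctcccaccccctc

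The printed stretch of SNCG had a GC content of 60%, 6 CpG and no GC box, and that of SLC32A1 73.6%, 32 CpG and a GC box on each strand. GRIK5 had 66.8%, 6 CpG and a GC box on each strand. Without any peak, SLC17A6 had 47.2%, 7 CpG and no GC box, while GAD2 had 69.2%, 24 CpG and 1 GC box. The GC box, the only motif searched, was present in some and absent from others of these 5 promoters, with and without peaks. Over the 300-base windows, 22 of 37 members (59.5%) held a GC box on either strand, beside 58.7% of all 15101 windows of that length, and the median GC content was 63.7% beside 62.7%. CpG were fewer, with a median of 15 beside 22. Among the 11 members with a gene-end peak in all 3 replicates, at either end, 8 (72.7%) held a GC box and the median GC content was 69%. All 1235 genes with such a peak had 61% and 64.7%. Of the 11 members, 3 had a peak over the 300-base window itself in all 3 replicates, and 2 had none there in any replicate. Among the 16 members with no gene-end peak, 8 (50%) held a GC box and the median GC content was 60.8%. All 11414 genes with no gene-end peak had 57.7% and 62%. Among the 8 members with no peak in the extended gene, 2 (25%) held a GC box and the median GC content was 53.3%. The member sets are small, and their differences were not tested.

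Peaks lay at most of the 51 genes. In replicates 1, 2 and 3, 37, 40 and 38 of them had a peak in the extended gene (72.5%, 78.4% and 74.5%), where 37.6%, 44.1% and 40.0% of all genes did. All 3 replicates had a peak at 34 of 51 (66.7%), against 29.4% of all genes. A peak was present in exactly 2 replicates at 6 members (11.8%), against 10.4% of all genes. Exactly 1 replicate had one at 1 member (1.96%), against 12.7% of all genes. No replicate had one at 10 of 51 (19.6%), against 47.5% of all genes. At 29 members (56.9%) the peaks of the 3 replicates also overlapped one another, directly or through a shared peak, against 21.9% of all genes. At the other 5, DDC, CHAT, SLC6A4, GRIK3 and SNCB, no region of the extended gene held overlapping peaks of all 3 replicates.

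Each part of the gene had peaks more often than in all genes. Gene ends had a peak in all 3 replicates at 15 of 51 members (29.4%), against 9.38% of all genes. Gene bodies had one at 30 (58.8%), against 19.6%, and flanks at 16 (31.4%), against 14.1%. With strand known for 37 members, the start end had a peak in all 3 replicates at 8 (21.6%), against 4.76%, and the opposite end at 6 (16.2%), against 4.37%. No preference for the start over the opposite end was thus visible in these counts. Requiring a −log10 q of 5 or more left 9 members with a gene-end peak in all 3 replicates, where all genes fell to 3.6%: SLC32A1, GRIK5, GABRD, CPLX1, SYN2, SNCG, NRXN2, NLGN2 and CAMK2B.

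**Figure D1:**
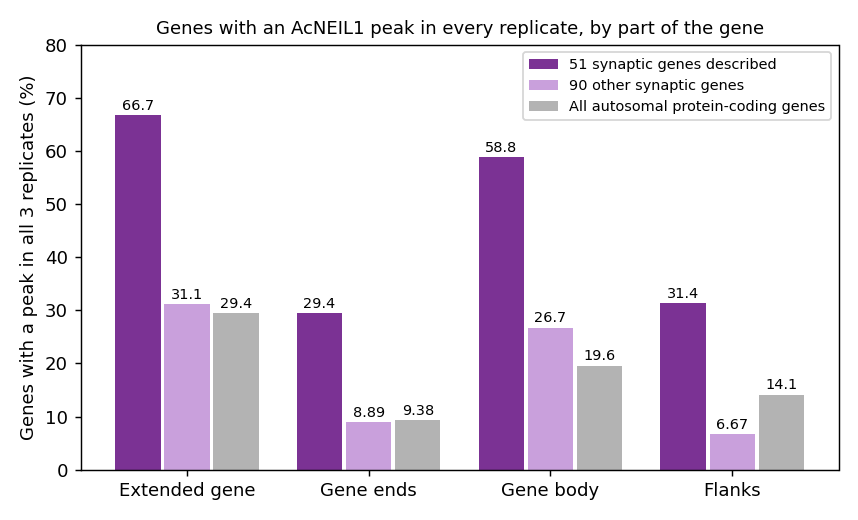
Percent of genes (y axis) with a peak in all 3 replicates in the extended gene, gene ends, gene body and flanks (x axis), as bars for the 51 members, 90 other synaptic genes and all 18973 genes. The members' bars stand at 66.7%, 29.4%, 58.8% and 31.4%, each above both other bars.

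Peak density gave the same order. The extended members held 421, 695 and 583 summits in replicates 1, 2 and 3, or 0.0414, 0.0683 and 0.0573 per kb over their summed length (0.0557 ± 0.0135, SD, n = 3). All genes held 0.0223, 0.0337 and 0.0281 per kb (0.028 ± 0.00573), so the members were higher in each of the 3 replicates and by more than the SD of either. At gene ends the density was 0.108, 0.176 and 0.181 per kb (0.155 ± 0.0411), beside 0.0549 ± 0.00977 for all genes. In bodies it was 0.0509 ± 0.0124, beside 0.0233 ± 0.00495, and in flanks 0.118 ± 0.0284, beside 0.052 ± 0.01. By sums gene ends were the densest part, while the mean of the genes' own densities was 0.141 ± 0.0179 in bodies and 0.155 ± 0.0411 at ends, a difference within the spread. Bodies held most of the members' summits, 86.2%, 86.3% and 85.1%, although by sums they were the least dense of the 3 parts.

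The median member had 0.0966 peaks per kb and the median gene 0.00276. Members ranged from 0 to 0.467 peaks per kb, and 15 of 51 (29.4%) were at 0.194 or more, the level reached by 10.0% of all genes. GABRD, DBH, GRIN2C, TH, CAMK2B, SNCG, SLC17A7, NRXN2, SLC32A1 and GRIK5 had the 10 highest densities and came from every functional group. The order of members was similar in the 3 lists, with a Spearman correlation across the 51 genes of 0.931, 0.902 and 0.92 between pairs of replicates, which share the cell line and the peak caller. The measures of peak strength did not all point one way: the members' median fold was 3.29, 3.35 and 3.44 in replicates 1, 2 and 3, beside 3.42, 3.39 and 3.61 for all autosomal peaks, lower in each replicate. Their median −log10 q was 4.11, 4.98 and 3.96, beside 3.88, 4.47 and 3.94, higher in each replicate, and 35%, 49.4% and 30.5% of their peaks reached a −log10 q of 5, beside 28.6%, 41% and 28.8%. Their median width was 418, 540 and 400 bp, beside 401, 479 and 384 bp.

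**Figure D2:**
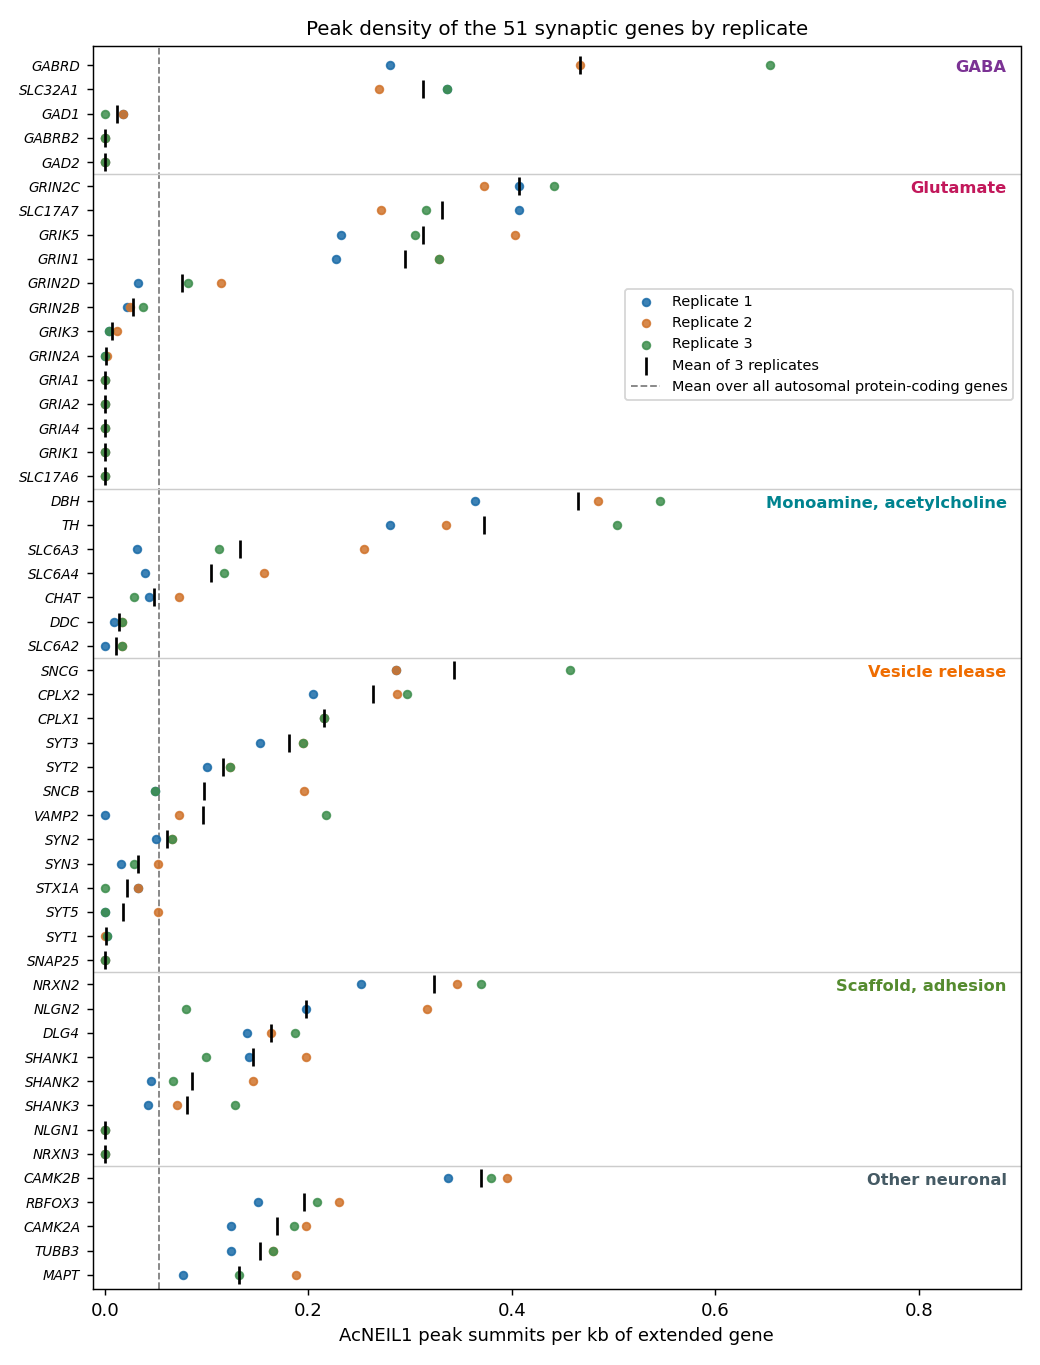
Peaks per kb of the extended gene (x axis) for each of the 51 members (y axis), grouped by function, with 1 point per replicate and a mark at the mean. GABRD and DBH reach 0.467 and 0.465, and 10 members lie at 0 in all replicates.

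Among the 5 GABA genes the peaks lay at the vesicular transporter and at 1 receptor subunit. SLC32A1 (chr20:38724486-38729372, gene 4.89 kb) had 0.336, 0.269 and 0.336 peaks per kb in replicates 1, 2 and 3 (0.313 ± 0.0388, SD, n = 3). GABRD, the δ subunit of extrasynaptic GABA-A receptors (chr1:2019345-2030758, 11.4 kb), had 0.28, 0.467 and 0.654 (0.467 ± 0.187). These were the only GABA genes with a peak in all 3 replicates, and both had it at a gene end and in the body. In SLC32A1, overlapping peaks formed a region at chr20:38723062-38727782 that runs from the upstream flank through the start into the body, with a fold of 4.81 ± 0.428. In GABRD the region at chr1:2027088-2033886 covered the high-coordinate end of the gene and had a fold of 4.94 ± 0.477.

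GABA synthesis showed little. GAD1, a glutamate decarboxylase that makes GABA (chr2:170813210-170861151, 47.9 kb), had 0.0173 peaks per kb in replicates 1 and 2 and none in replicate 3, with folds of 4.1 and 2.39. Its paralog GAD2 (chr10:26216372-26304558, 88.2 kb) and the receptor subunit gene GABRB2 (chr5:161288436-161548404, 260 kb) had no peak in any replicate. Absence of a peak means that nothing reached the q-value cutoff at the given depth, and does not show that AcNEIL1 was missing there.

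The 13 glutamate genes split in a like way, with 7 that had a peak in all 3 replicates, 5 with none and GRIN2A with a peak in replicate 2 alone. Of the vesicular transporters, SLC17A7 (chr19:49429401-49441527, 12.1 kb) had 0.407, 0.271 and 0.316 peaks per kb (0.331 ± 0.069), and its overlapping peaks covered chr19:49433773-49441478, from the body to the start, with a fold of 4.83 ± 0.127. SLC17A6 (chr11:22338381-22379503, 41.1 kb) had none. The pair thus differed in every replicate although both load glutamate into vesicles.

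NMDA receptor subunits ranged widely. GRIN2C (chr17:74842023-74861532, 19.5 kb) had 0.407, 0.373 and 0.441 peaks per kb (0.407 ± 0.0339), and GRIN1, the obligatory subunit (chr9:137139154-137168756, 29.6 kb), had 0.227, 0.328 and 0.328 (0.295 ± 0.0583). GRIN2D (chr19:48393668-48444931, 51.3 kb) had 0.0326, 0.114 and 0.0816 (0.0762 ± 0.0411). The long genes GRIN2B (chr12:13537337-13982134, 445 kb) and GRIN2A (chr16:9753404-10182908, 430 kb) were at the low end: GRIN2B had 0.022, 0.0242 and 0.0374 (0.0279 ± 0.00832), and GRIN2A 0.00228 in replicate 2 only. The order GRIN2C, GRIN1, GRIN2D, GRIN2B held in each replicate.

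Strong peaks were also found in GRIN2B, where the strongest peak had a fold of 5.56 ± 0.666. In the 25% of the gene with the lowest coordinates lay 9 of 10, 10 of 11 and 15 of 17 of the gene's summits in replicates 1, 2 and 3, the side away from the start, since the gene is on the minus strand. One region of overlapping peaks there, chr12:13562449-13564753, was 419 kb from the start and had a fold of 4.93 ± 1.52.

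Kainate and AMPA receptor genes differed as much. GRIK5 (chr19:41998324-42070206, 71.9 kb) had 0.232, 0.403 and 0.305 peaks per kb (0.313 ± 0.0858) and 10 regions where the peaks of all replicates overlapped, with a fold of 5.01 ± 0.744 at chr19:42061532-42064353, in the body. GRIK3 (chr1:36795527-37034515, 239 kb) had 0.00402, 0.012 and 0.00402 (0.00669 ± 0.00464), and GRIK1 (403 kb) none. GRIA1, GRIA2 and GRIA4, subunits of AMPA receptors (324, 146 and 372 kb), had none either. The glutamate genes without peaks were thus SLC17A6, GRIA1, GRIA2, GRIA4 and GRIK1, 4 of them over 100 kb long.

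GABA and glutamate genes did not differ clearly in density. Summed over genes, the GABA group had 12, 15 and 19 summits in 462 kb, or 0.026, 0.0324 and 0.0411 peaks per kb (0.0332 ± 0.00759), and the glutamate group 62, 85 and 81 in 2714 kb, or 0.0228, 0.0313 and 0.0298 (0.028 ± 0.00453). The ratio was 1.14, 1.04 and 1.38 (1.18 ± 0.175), above 1 in 3 of 3 replicates, while the difference of the means was smaller than the SD of the GABA value. The direction turned with the part of the gene: in bodies the ratio was 0.763, 0.867 and 0.867, below 1 in each replicate. At gene ends it was 4.33, 0.473 and 3.12 and in flanks 0.289, 1.3 and 1.04, on few summits. With the mean of the genes' own densities in place of sums, the GABA value was 0.158, the glutamate value 0.112 and the ratio 1.41. By sums both groups were near all genes, 0.028 ± 0.00573, and by the mean of the genes' own densities both were above them, 0.0532 ± 0.0104.

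A few genes, on a small share of each group's length, set both values. GABRD and SLC32A1 held 11 of 12, 14 of 15 and 19 of 19 GABA summits on 7.85% of that group's length. GRIN1, GRIN2C, GRIK5 and SLC17A7, named after their values were seen, held 49 of 62, 63 of 85 and 58 of 81 glutamate summits on 6.38% of theirs. Adding GRIN2B raised this to 59, 74 and 75. The group values therefore rest on a handful of genes, which are not replicates of a group.

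**Figure D3:**
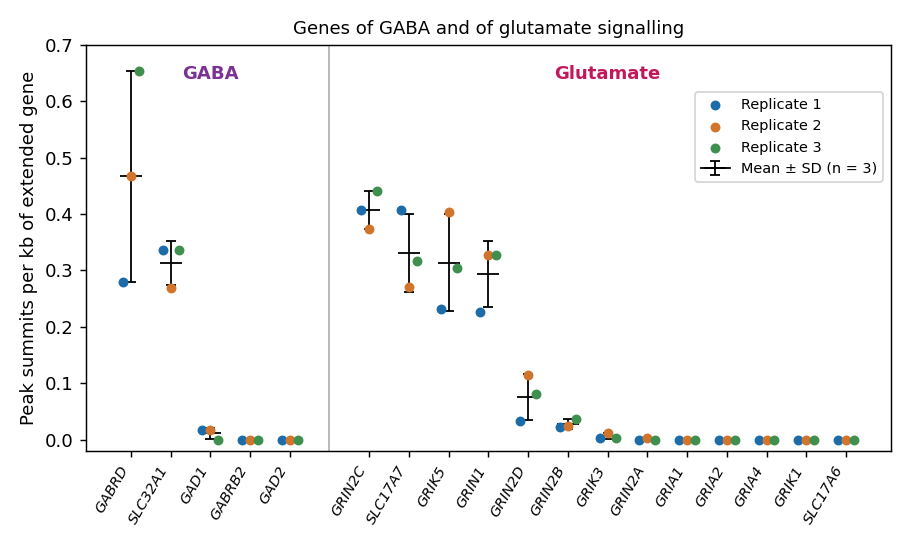
Peaks per kb of the extended gene (y axis) for each of the 5 GABA and 13 glutamate genes (x axis), with 1 point per replicate and the mean ± SD. GABRD has the highest mean of the GABA genes at 0.467, followed by SLC32A1 at 0.313. GRIN2C has the highest mean of the glutamate genes at 0.407.

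The monoamine and acetylcholine genes all had a peak in at least 2 replicates, and 6 of 7 in all 3. TH, tyrosine hydroxylase, which makes the dopamine precursor (chr11:2163929-2171815, 7.89 kb), had 0.28, 0.335 and 0.503 peaks per kb (0.373 ± 0.116). DBH, which turns dopamine into noradrenaline (chr9:133636363-133659329, 23 kb), had 0.364, 0.485 and 0.546 (0.465 ± 0.0927). The TH region at chr11:2156922-2165571 had a fold of 5.71 ± 1.74 and also overlapped INS and INS-IGF2 next to it, so it cannot be assigned to TH alone. DBH had 9 regions shared by the replicates, of which the strongest, in its flank at chr9:133661670-133663720 with a fold of 4.49 ± 1.02, also overlapped SARDH.

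The enzyme DDC, which follows TH in the pathway, had only 0.0142 ± 0.00494 peaks per kb, and CHAT, which makes acetylcholine, 0.0484 ± 0.0222. Reuptake transporters differed among themselves. SLC6A3, for dopamine (chr5:1392794-1445440, 52.6 kb), had 0.0319, 0.255 and 0.112 (0.133 ± 0.113), with replicate 2 far above replicate 1. SLC6A4, for serotonin, had 0.0389, 0.156 and 0.117 (0.104 ± 0.0595). SLC6A2, for noradrenaline, had none in replicate 1 and 0.0166 in each of the others. As a group the 7 genes had 0.0608, 0.131 and 0.11 peaks per kb (0.101 ± 0.0361). This was above all genes, at 0.028 ± 0.00573, in every replicate. TH held 5, 6 and 9 and DBH 12, 16 and 18 of the group's 25, 54 and 45 summits.

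Vesicle release genes had a peak in all 3 replicates at 8 of 13. SNCG (chr10:86955759-86963258, 7.5 kb) had 0.286, 0.286 and 0.457 peaks per kb (0.343 ± 0.099), and its region at chr10:86953579-86958459, across the start and also over the neighbouring MMRN2, had the highest fold among the members' shared regions, 6.39 ± 0.387. SNCB, β-synuclein, had 0.0978 ± 0.0847 and a strongest fold of 3.25 ± 0.615. The complexins, which clamp and trigger SNARE fusion, both carried many peaks. CPLX1 (chr4:784957-826129, 41.2 kb) had 0.215 in each replicate, and CPLX2 0.205, 0.287 and 0.297 (0.263 ± 0.0506). In CPLX1 a region of 12187 bp, chr4:784224-796410, took in the low-coordinate end with a fold of 5.83 ± 1.71.

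Synaptotagmins, the calcium sensors of release, ran from SYT3 with 0.181 ± 0.025 and SYT2 (chr1:202590596-202710454, 120 kb) with 0.1, 0.123 and 0.123 (0.116 ± 0.0133) to SYT5 and SYT1. SYT5 had a peak in replicate 2, with a fold of 3.09 (0.0524 per kb), and 1 in replicate 3, with a fold of 4.6, that reached its flank with the summit outside. SYT1 had 0.00167 in replicates 1 and 3. The synapsins, which tether vesicles, were SYN2 (chr3:12004388-12192032, 188 kb) with 0.0506, 0.0658 and 0.0658 (0.0607 ± 0.00876) and SYN3 (551 kb) with 0.0161, 0.0517 and 0.0285 (0.0321 ± 0.0181). SYN2 had its strongest region, with a fold of 5.60 ± 1.41, at chr3:12187401-12193045, over the end away from the start.

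Of the core SNARE genes, SNAP25 had no peak, STX1A had 0.0328 in replicates 1 and 2 only, and VAMP2 had none in replicate 1, 0.0725 in replicate 2 and 0.217 in replicate 3. None of the 3 had a peak in all replicates, nor did SYT1 and SYT5.

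Scaffold and adhesion genes had a peak in all 3 replicates at 6 of 8. NRXN2, a presynaptic neurexin (chr11:64606174-64723197, 117 kb), had 32, 44 and 47 summits, or 0.252, 0.346 and 0.37 per kb (0.323 ± 0.0625), and 11 shared regions. Its paralog NRXN3 (1698 kb), the longest member, had none. The neuroligins, postsynaptic partners of neurexins, differed in the same way: NLGN2 (chr17:7404653-7419860, 15.2 kb), found at inhibitory synapses, had 0.198, 0.317 and 0.0793 (0.198 ± 0.119), and NLGN1 (898 kb) had none.

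Among postsynaptic scaffolds, DLG4 had 0.163 ± 0.0233 and SHANK1 0.146 ± 0.0498 peaks per kb. SHANK2 (785 kb) had 36, 116 and 53 summits (0.0859 ± 0.053 per kb), so replicate 2 held more than the others together. SHANK3 (chr22:50672823-50733212, 60.4 kb) had 0.0426, 0.071 and 0.128 (0.0805 ± 0.0434), with a region over its start. The genes SYT3 and SHANK1 lie 1150 bp apart, so their extended genes overlap, and these shared 1, 1 and 0 summits.

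All 5 other neuronal genes had a peak in all 3 replicates. CAMK2B, a calcium/calmodulin-dependent kinase (chr7:44217154-44326013, 109 kb), had 40, 47 and 45 summits, or 0.337, 0.395 and 0.379 per kb (0.37 ± 0.0303), in 20 shared regions, of which the strongest, chr7:44227652-44237485, had a fold of 5.34 ± 0.305. Its paralog CAMK2A had 0.169 ± 0.0399. RBFOX3, the splicing factor known as the neuronal marker NeuN (chr17:79089345-79665571, 576 kb), had the most summits of any member, 88, 135 and 122 (0.196 ± 0.0414 per kb), and 23 shared regions. MAPT, which encodes tau, had 0.132 ± 0.0556, and TUBB3, a neuronal β-tubulin, 0.152 ± 0.0239. In TUBB3 no peak touched the body in any replicate, and 3, 4 and 3 of its 3, 4 and 4 summits lay in the flanks. Its strongest shared region, chr16:89918916-89921639, lay upstream of the start and also overlapped MC1R. The 5 genes together had 0.159, 0.24 and 0.215 peaks per kb (0.205 ± 0.0413), above each of the 5 other groups in every replicate.

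Peaks in the long genes were clustered along the gene. With genes cut into 4 pieces of 25% each, in order of coordinate, the lowest piece of RBFOX3 held 46, 51 and 55 of 88, 132 and 122 summits within the gene and the third piece 24, 45 and 45. In SHANK2 the lower 2 pieces held 31 of 34, 88 of 112 and 36 of 51. In SYN3 the highest piece held none of 8, 27 and 16. The longest shared region in RBFOX3, chr17:79093683-79110102, spanned 16420 bp with a fold of 4.95 ± 1.17.

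The 15 genes with a gene-end peak in all 3 replicates covered all functional groups. The fold of the strongest gene-end peak was 6.11, 6.83 and 6.22 at SNCG (6.39 ± 0.387, SD, n = 3), 7.01, 4.12 and 5.6 at SYN2 (5.58 ± 1.44) and 3.81, 7.52 and 4.11 at CPLX1 (5.14 ± 2.06). SNCG, SYN2 and CPLX1, all release genes, thus had the highest means, with CPLX1 resting on replicate 2. Next came both GABA genes, GABRD with 4.48, 4.89 and 5.43 (4.94 ± 0.477) and SLC32A1 with 4.78, 4.74 and 5.26 (4.93 ± 0.286), which differed by less than their spread. NLGN2 had 4.25, 5.68 and 4.6 (4.84 ± 0.744), SYT2 5.64, 3.53 and 5.22 (4.80 ± 1.12), and TH 2.57, 7.7 and 4.07 (4.78 ± 2.64), the widest spread of the 15. A gene-end peak only had to overlap the end window, and its summit could lie outside. No summit lay in the end windows of CPLX1 and NLGN2 in replicates 2 and 3. The same held for TH, GABRD and NRXN2 in replicate 2, SYN2 and SLC17A7 in replicate 3, and SHANK3 in replicate 1. With the summit required there, 7 members were left.

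The remaining gene ends were lower on average, with overlapping ranges. GRIK5 had 3.93, 4.33 and 5.01 (4.43 ± 0.548), NRXN2 3.97, 5.36 and 3.82 (4.38 ± 0.847), and CAMK2B 3.72, 4.93 and 4.46 (4.37 ± 0.61). SLC17A7 had 3.45, 4.75 and 4.53 (4.24 ± 0.695) and SHANK3 2.9, 4.83 and 4.5 (4.08 ± 1.04). GRIN2D had 3.31, 4.2 and 3.35 (3.62 ± 0.502), and DBH, with 2.86, 3.33 and 3.41 (3.20 ± 0.296), was the lowest of the 15. SNCG in its lowest replicate lay above every replicate of the other genes except SYN2, CPLX1 and TH, while the ranges of neighbours in this order overlapped throughout. The gene-end regions of NLGN2, SYT2, GRIN2D, GRIK5 and NRXN2 also overlapped SPEM1, PPP1R12B, KDELR1, ZNF574 and SLC22A12, in this order, and those of SNCG and TH the neighbours named above.

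**Figure D4:**
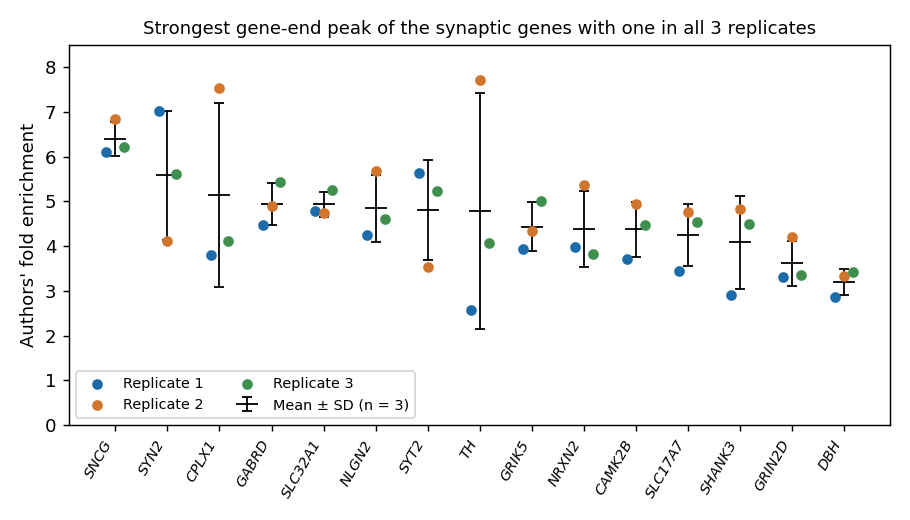
Fold enrichment of the strongest peak that overlaps a gene end (y axis, the authors' value), with 1 point per replicate and the mean ± SD. The 15 members with such a peak in all 3 replicates are on the x axis. SNCG has the highest mean at 6.39 and DBH the lowest at 3.20, and TH and CPLX1 have the widest spread.

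Other genes of the same pathways were closer to all genes. Of 90 further synaptic genes listed by function, 28 (31.1%) had a peak in the extended gene in all 3 replicates and 8 (8.89%) at a gene end, close to the 29.4% and 9.38% of all genes, and 46 (51.1%) had no peak. Bodies had one in all 3 replicates at 24 (26.7%), above the 19.6% of all genes, and flanks at 6 (6.67%), below the 14.1%. Their median density was 0 peaks per kb, and their median region 0.008. By list, a peak in all 3 replicates was found at 4 of 21 GABA, 6 of 22 glutamate, 4 of 10 monoamine and acetylcholine, 9 of 25 release and 5 of 12 scaffold genes (41.7%). At gene ends 3 of the 10 monoamine and acetylcholine genes (30%) had one. Both lists were drawn up with earlier results of these data known, so the members' excess and its contrast with these 90 genes may follow from the choice of genes. Among those with the highest gene-end fold were PNMT (4.70 ± 0.42), which makes adrenaline, SYT12 (4.16 ± 0.501), the complexin gene CPLX3 (3.92 ± 0.408) and the GABA transporter gene SLC6A13 (3.90 ± 1.14).

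Gene length and the peak density of the surrounding region moved with these results. Across the 51 members, density and gene length had a Spearman correlation of −0.56, and across all genes of −0.158. A peak in all 3 replicates was found at 3 of 5 members under 10 kb, against 30.0% of all genes of that length, at 12 of 15 (80%) from 10 to 50 kb, against 30.7%, at 14 of 18 (77.8%) from 50 to 200 kb, against 27.2%, and at 5 of 13 (38.5%) of 200 kb or more, against 26.9%. For the extended gene the members were thus above genes of their length in each class, least so among the longest. Gene ends had a peak in all 3 replicates at 3 of 5, 5 of 15 (33.3%), 7 of 18 (38.9%) and 0 of 13 members in the same classes, against 14.8%, 9.68%, 4.66% and 2.84% of all genes. No member of 200 kb or more had a gene-end peak in all replicates.

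The region was taken as the 500 kb on each side beyond the extended gene, or less where the chromosome tip came first. Its median density was 0.0407 peaks per kb around members and 0.0267 around all genes. Around the 34 members with a peak in all 3 replicates the median was 0.0812, and around the 10 members without a peak it was 0.0005, with a highest value of 0.00567. Own and regional density had a Spearman correlation of 0.798 across members and 0.565 across all genes. Of the 34, 30 (88.2%) had a density above that of their region, as did 78.4% of all genes with a peak in all 3 replicates, and 34 of all 51 (66.7%) did, against 31% of all genes. CAMK2B, at 0.37 peaks per kb in a region of 0.0363, SNCG, at 0.343 in 0.0407, SLC32A1, at 0.313 in 0.026, and CPLX2, at 0.263 in 0.0233, stood far above their surroundings. RBFOX3, at 0.196 in 0.194, SLC6A3, at 0.133 in 0.144, and SHANK3, at 0.0805 in 0.0902, did not. SHANK3 lay 0.0664 Mb from a tip, so its region was cut short on that side. GRIN1, GABRD and TH lay in dense regions of 0.163, 0.152 and 0.232.

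A peak in all 3 replicates was more frequent among genes near chromosome tips than among genes farther away. Within 5 Mb of a tip lay 11 members: TH, DBH, SLC6A3, GRIN1, GABRD, SYT5, CPLX1, SNCB, SHANK3, RBFOX3 and TUBB3. All but SYT5 had a peak in all 3 replicates (90.9%), against 47.9% of all genes within 5 Mb of a tip. Of the 40 members farther away, 24 (60%) had one, against 26.7%. The part that regional density and gene length play in the members' counts was not tested.

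**Figure D5:**
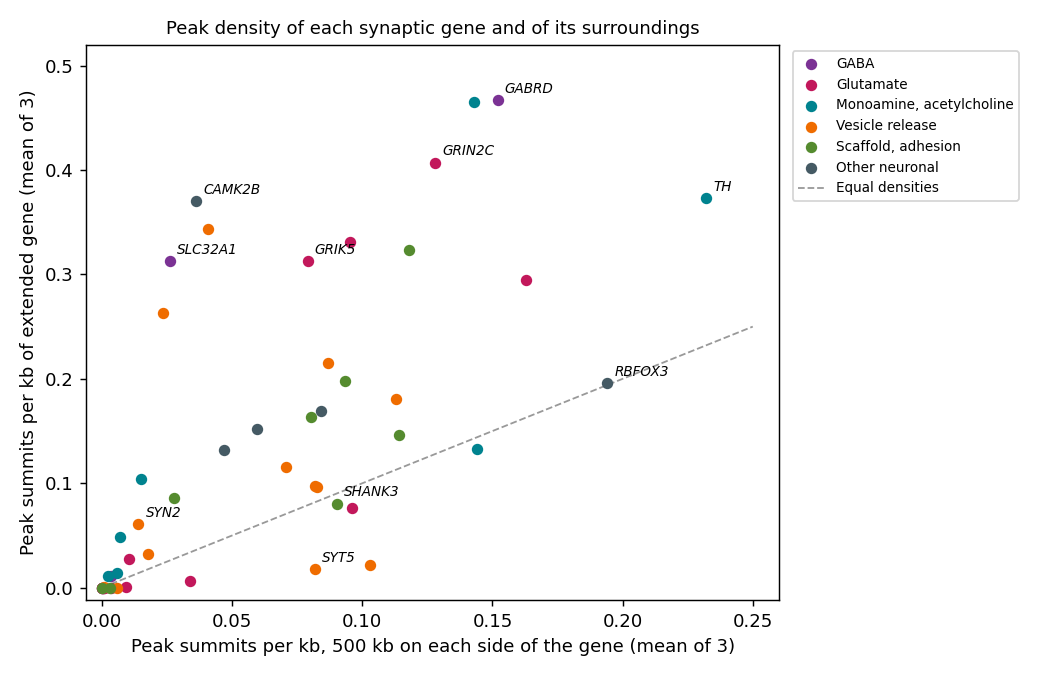
Peaks per kb of the extended gene (y axis) against peaks per kb in the region, up to 500 kb on each side (x axis). Each point is 1 member, as the mean of 3 replicates, with the line of equal values. Members without a peak sit at regional values of at most 0.00567, and 34 of 51 members lie above the line.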

How the data were processed

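Sheared, formaldehyde-crosslinked HCT116 chromatin was immunoprecipitated with an antibody to AcNEIL1, per the labels' protocols. Peaks were called with MACS 2.1.1.20160309 for each ChIP library against the input of the same number, with a q-value cutoff of 0.05, single-end tags, at most 2 tags per position and the larger library scaled to the smaller, per the file headers. Fragment lengths were 268, 294 and 249 bp in replicates 1, 2 and 3. Bowtie2, Trim Galore, cutadapt, FastQC, SAMtools and bedtools are named in the submitters' processing notes, with no version. Coordinates are in hg38 and count from 1. The signal deposited by the authors is the summit's pileup, the deposited −log10 values are those of p and q, and the fold enrichment is the authors' own ratio to the local background. Fold was used only to describe and rank peaks.

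After duplicate filtering the ChIP libraries held 31921768, 28814429 and 35222701 tags and the inputs 32877739, 37772127 and 33606858, and the lists held 39655, 59750 and 49482 autosomal peaks. The shortest list was that of replicate 1.

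Gene positions came from RefSeq (GRCh38.p14), which gave no exons here and strand only for genes in its promoter table. Overlaps and densities were computed with Python 3.11.15, numpy 2.4.6 and pandas 2.3.3, tested on simulated data, and plotted with matplotlib 3.10.9. A chromosome tip was the chromosome start or the last gene or peak. The members and lists were chosen with earlier results of these data known. Values per replicate are given for members with a gene-end peak in all 3 replicates, the 10 densest members and all GABA and glutamate genes, and for a few other members chosen after their values were seen. Of the other synaptic genes, the rule took the 6 with the highest gene-end fold and a gene-end peak in all 3 replicates, and some of these are not reported here. Alternatives were stricter peaks, equal list lengths, summits in place of overlap, other windows, other gene groupings and leaving out each replicate.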

Additional observations from a re-analysis of the deposited data

How the results depend on the processing

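The GABA to glutamate ratio in the extended gene stayed above 1 in every alternative run, from 1.09 to 1.41. In bodies the ratio was below 1 in each replicate of the main run, at 0.763, 0.867 and 0.867. The number of members with a peak in the extended gene in all 3 replicates stayed between 28 and 37, against 14.3% to 35.3% of all genes. Other end windows could change neither the extended-gene ratio nor this number, since they do not enter them. Requiring a −log10 q of 5 or more gave 9 members at gene ends, 7 in flanks, a median of 0.0237 peaks per kb, and 0.0137 for GABA and 0.0119 for glutamate genes, with fewer peaks by construction. The extended-gene count was then 28, against 14.3% of all genes. At gene ends and in flanks 3.6% and 5.22% of all genes were left. With equal list lengths the glutamate value was 0.0228. Using the summit for presence left 7 members at gene ends, against 6.59% of all genes. End windows of 2 kb gave 23 (45.1%) at gene ends and 10 (19.6%) in flanks, against 14.1% and 11.9% of all genes. Leaving out each replicate gave 15 to 23 members at gene ends, against 10.3% to 13% of all genes. In flanks it gave 16 to 25, against 15.6% to 19%. Both member counts were highest without replicate 1. Presence in these runs was required in the remaining replicates only, a looser rule for members and all genes alike. Moving NLGN2 to the GABA group and the scaffold genes and NLGN1 to the glutamate group gave 0.0417 and 0.0364. The mean of the genes' own densities gave 0.158, 0.112 and a ratio of 1.41. No paired analysis was possible because the inputs, which share replicate numbers with the ChIP libraries, entered only through the peak calls. Depth limits every absence of a peak.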
